A study of Drosophila melanogaster with 6 samples.

Results

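Fatp3 (CG3394) encodes 1 of the 3 fatty acid transport proteins of the fly, and its RNA was measured in adult heads of the Top3b26 mutant and of wild type (WT). Its probes were found by name: a probe was taken as Fatp3 when its identifier was a RefSeq accession, symbol or synonym of that gene. This gave 1 of the 289 genes that a probe could be named for, with 2 of the 32162 probes of the array and 11 of the 43602 non-control spots. The gene had been chosen by its difference in signal between these same arrays, so its levels are given here as a description, with no test. For each group 3 separately prepared RNA samples of adult heads were measured, each on 1 one-colour Agilent array. Flies of the Top3b26 group carried a mutant allele of the gene for topoisomerase 3-beta (Top3b) that arose by remobilizing a P-element, in the strain background W1118. The WT group was the W1118 stock, wild type for this gene. The labels give no sex. Each sample held the heads of many flies, collected by freezing and sieving. The mutant is a single allele, and no arrays of a rescued mutant were among the samples, so the effect of the allele and that of other differences between the 2 stocks cannot be told apart.

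Fatty acid transport proteins sit in cell membranes and help long-chain fatty acids enter the cell. They also join very long-chain fatty acids to coenzyme A, the step that prepares a fatty acid for storage, for membrane lipids or for breakdown. The family is conserved from yeast to humans, where its members form the SLC27 group of solute carriers. The other fly members are Fatp1 and Fatp2, and Fatp1 is known for a role in the retina.

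Fatp3 lies on chromosome arm 2R. In the RefSeq gene table (Release 6) it has 2 transcripts, and the files give both probes the accession of the same one, NM_166666. Whether the probes also detect the other transcript was not analysed here. The microRNA gene mir-4985 lies inside its span, and nvy and betaTub60D are the protein-coding genes on its sides. None of the 10 nearest genes had a probe with a gene name, so the neighbourhood could not be described.

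The files carry unusually many measurements of this gene. One of its probes was printed in 10 copies spread over the array, which makes it 1 of 200 such probes among the 32162, and the other probe was printed once. The plot of single spots shows what these 66 spots gave.

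**Figure D1:**
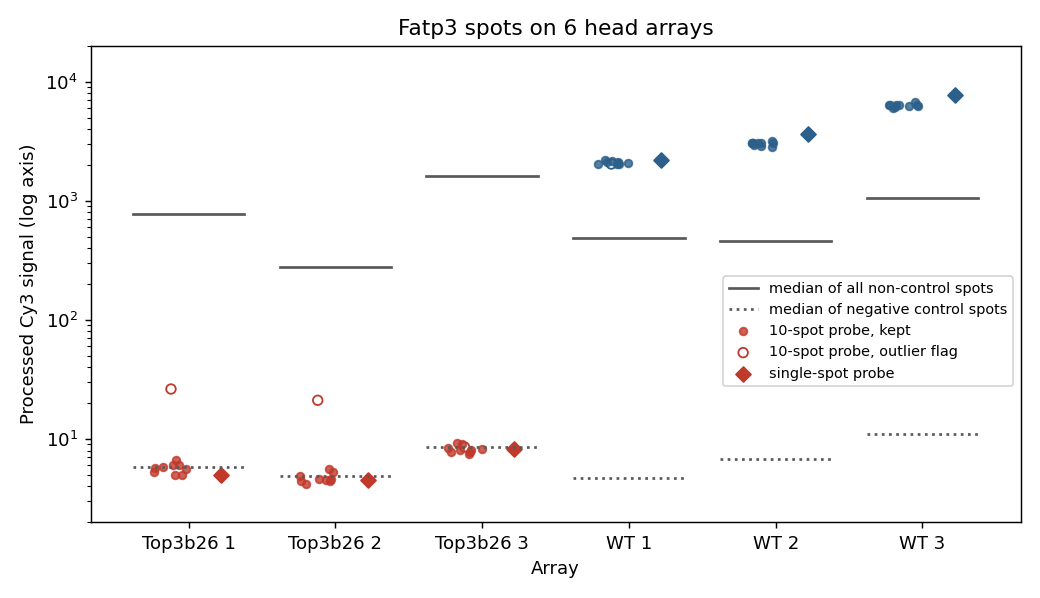
Processed Cy3 signal (log axis) of every Fatp3 spot on the 3 Top3b26 arrays (red) and the 3 WT arrays (blue). Circles are spots of the 10-spot probe, open where the software had flagged the spot as an outlier, and diamonds are the single-spot probe. Solid lines are the median of all non-control spots of the array and dotted lines the median of its 153 negative control spots. Kept Top3b26 spots lie at the dotted lines, between 4.22 and 9.30, and WT spots lie above the solid lines, between 2026 and 7673.

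In Top3b26 heads the 10-spot probe had a median processed signal of 5.69 on array 1, 4.59 on array 2 and 8.09 on array 3, against 2090, 3046 and 6396 on WT arrays 1, 2 and 3. The single-spot probe gave 5.02, 4.49 and 8.19 on the Top3b26 arrays, against 2195, 3611 and 7673 on the WT arrays. The groups did not overlap at either probe, and every kept spot of the mutant was lower than every WT spot. After the scaling described below, every Top3b26 array was below every WT array at 15.0% of the tested probes with 6 values. These processed signals had the background subtracted but were not yet normalized between arrays.

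The negative control spots, which carry no fly sequence, show what the low values correspond to. The 10-spot probe stood at 0.977, 0.942 and 0.939 times the negative control median on Top3b26 arrays 1, 2 and 3, and at 448, 452 and 576 times on WT arrays 1, 2 and 3. On the Top3b26 arrays between 52.3% and 64.7% of the 153 negative control spots were brighter than the median of this probe, and on the WT arrays 0% were. For the single-spot probe, between 62.7% and 82.4% of the negative control spots were brighter on the Top3b26 arrays, and again 0% on the WT arrays. By this measure the typical Fatp3 spot of the mutant heads had no higher processed signal than a spot with no target. At the mutant spots that signal was mostly close to its error estimate, so the ratios below 1 are not measured brightness.

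The flags of the scanner software gave the same split. On the Top3b26 arrays 0 of the 33 Fatp3 spots were well above background, against 33 of 33 on the WT arrays. Over all 32162 probes, 0.333% carried this flag on all WT arrays and on none of the Top3b26 arrays, and 0.339% showed the opposite. Here and below, a probe carried the flag on an array when most of its spots there did. A probe whose spots were evenly split counted as not carrying it. After the software subtracted its background estimate, 29 of the 33 spots on the Top3b26 arrays were below 0, against 0 of 33 on the WT arrays. The raw median of the spot was above that of its local surroundings at 33 of 33 spots in both groups, by between 3 and 38 on the Top3b26 arrays and by between 1488 and 7739 on the WT arrays. No Fatp3 spot was saturated.

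A weaker flag, for a signal that is positive and significant, was set at 2 of the 33 spots on the Top3b26 arrays, and at 33 of 33 on the WT arrays. Both of the mutant spots were at the same place on the array (row 444, column 17), with signals of 26.3 on array 1 and 21.1 on array 2, and both carried an outlier flag. The spot at that place was also flagged as an outlier on Top3b26 array 3, with a signal of 8.56. These 3 spots and 1 spot of WT array 1 were left out of the levels below.

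The copies of the 10-spot probe agreed closely in processed signal, which is detrended within each array, where the gene was measured. On the WT arrays their coefficient of variation was 2.60%, 3.28% and 2.91%, while the median over all 10-spot probes of the same arrays was 6.81%, 4.73% and 4.24%. On the Top3b26 arrays it was 9.56%, 9.63% and 7.33%, at signals near those of the negative controls and close to their own error estimates. In background-subtracted signal the kept copies spread more widely on all WT arrays. They ran from 1525 to 2238 on WT array 1, from 2522 to 3455 on array 2 and from 5782 to 7095 on array 3. In processed signal the same copies ran from 2026 to 2192, from 2856 to 3168 and from 6029 to 6706. The spread between copies on one array is technical and is not the error between samples.

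Between the WT samples the unnormalized signal differed more. The brightest WT array gave 3.06 times the signal of the dimmest at the 10-spot probe and 3.50 times at the single-spot probe. The median of all non-control spots differed 2.28-fold between the brightest and the dimmest WT array. WT array 3 was the brightest by both measures.

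To compare arrays of unequal brightness, the log2 signal of each array was centred on its mean and scaled to a common spread, as in the z-transformation of the study. A level is therefore the number of log2 units above (positive) or below (negative) the mean of the array. The 10-spot probe had levels of -6.55, -5.40 and -6.79 on Top3b26 arrays 1, 2 and 3, against 2.63, 3.02 and 2.99 on WT arrays 1, 2 and 3. The single-spot probe had levels of -6.72, -5.47 and -6.80 on the Top3b26 arrays, against 2.70, 3.28 and 3.26 on the WT arrays. After this scaling the WT samples differed by only 0.39 at the 10-spot probe and 0.58 at the single-spot probe. The Top3b26 samples differed by 1.39 and 1.34, with array 2 the highest at both probes.

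**Figure D2:**
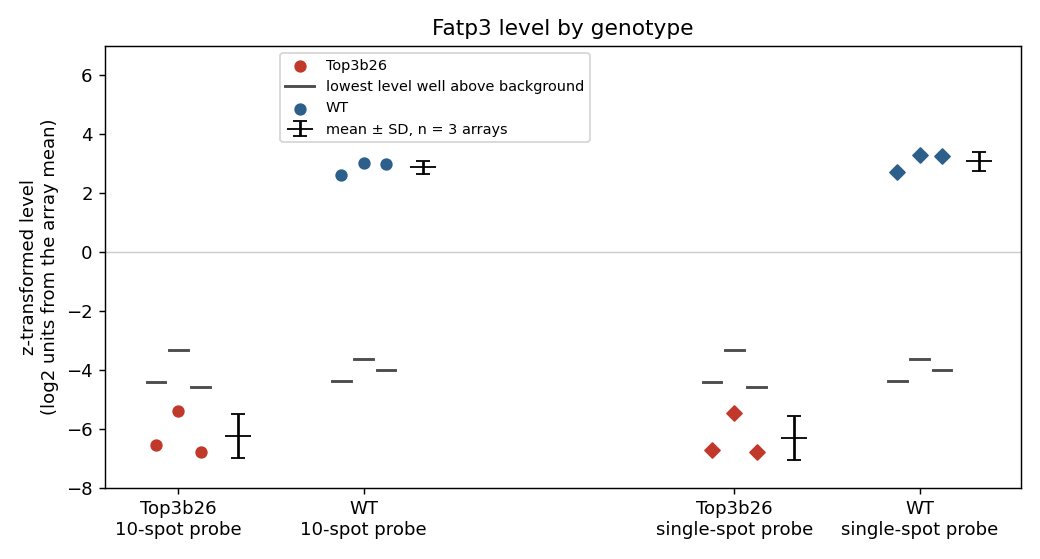
Level of both Fatp3 probes (log2 units from the array mean) on the 3 Top3b26 arrays (red) and the 3 WT arrays (blue), with the mean ± SD of each group (n = 3 arrays). Short grey lines mark, for each array, the lowest level at which any probe was still well above background. The Top3b26 points lie between -6.80 and -5.40, below those lines, and the WT points between 2.63 and 3.28.

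Top3b26 array 2 was also the dimmest array. Its median non-control signal was 57.2 times the negative control median, while the other 5 arrays gave between 68.4 and 186. On each Top3b26 array the Fatp3 levels lay at least 2.07 below the lowest level of any probe well above background, so the values of the 3 mutant samples have no order.

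In the group means, Fatp3 had a level of -6.25 ± 0.74 in Top3b26 and 2.88 ± 0.22 in WT at the 10-spot probe (SD, n = 3 arrays per group), and -6.33 ± 0.75 in Top3b26 and 3.08 ± 0.33 in WT at the single-spot probe. The difference, Top3b26 minus WT, was -9.13 at the 10-spot probe and -9.41 at the single-spot probe. The lowest WT array was 8.03 above the highest Top3b26 array at the 10-spot probe and 8.17 above it at the single-spot probe.

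Because the mutant signal was at background, such a difference is not a measured ratio. A bound was taken instead, with the mutant level replaced on each array by the lowest level that still passed the background flag. Fatp3 was then at least 128-fold lower in Top3b26 by the 10-spot probe and at least 147-fold lower by the single-spot probe. The size of the bound depends on the background correction and its settings. With normexp, run here with a chosen constant of 50 added to every signal, the bound was at least 19.5-fold and at least 25.5-fold. How far that constant set these values was not tested. In whole heads, fewer cells that hold the RNA and less RNA per cell cannot be told apart.

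The difference was present on both slides that held the arrays. On slide 1, with Top3b26 1, WT 1 and WT 2, it was -9.38 at the 10-spot probe and -9.71 at the single-spot probe. On slide 2, with Top3b26 2, Top3b26 3 and WT 3, it was -9.08 and -9.40. A slide held no more than 2 arrays of a group, so these values have no replicate check of their own.

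Both probes gave the same contrast. Across the 6 arrays their levels had a Pearson's r of 0.9999, a description that reflects the difference between the genotypes, and both probes are on the same arrays and share their brightness. The single-spot probe was lower than the 10-spot probe on the Top3b26 arrays, by between 0.01 and 0.17 (log2), and higher on the WT arrays, by between 0.07 and 0.28. On the mutant side this compares mostly error estimates of the software.

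Against the other probes of the array, Fatp3 in WT heads was in the upper part of the range. The percentile of its probes among all probes was between 2.52 and 8.41 on the Top3b26 arrays and between 73.6 and 78.4 on the WT arrays. A probe's brightness also depends on its sequence, so this is a place on the array and not an abundance relative to other genes. Of the 7974 probes with a mean WT level at or above that of the 10-spot probe, 7900 were well above background on all Top3b26 arrays and 12 (0.150%) on none of them. Those 12 include both Fatp3 probes. Of the 7333 probes that reached the same level in the Top3b26 mean, 0 failed the background flag on all WT arrays.

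The probes that passed the background flag on all WT arrays and on none of the Top3b26 arrays numbered 107. Their bounds had a median of 3.42-fold, and 13 of them reached 100-fold. The Fatp3 probes were 10th and 12th of the 107 by the size of the bound. The largest bound was at FBtr0084690, a transcript with no gene name in the table used, which was at least 391-fold lower in Top3b26. In the other direction, 109 probes passed the flag on all Top3b26 arrays and on none of the WT arrays. Among those 0 reached 100-fold, and the largest bound was 54.9-fold.

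**Figure D3:**
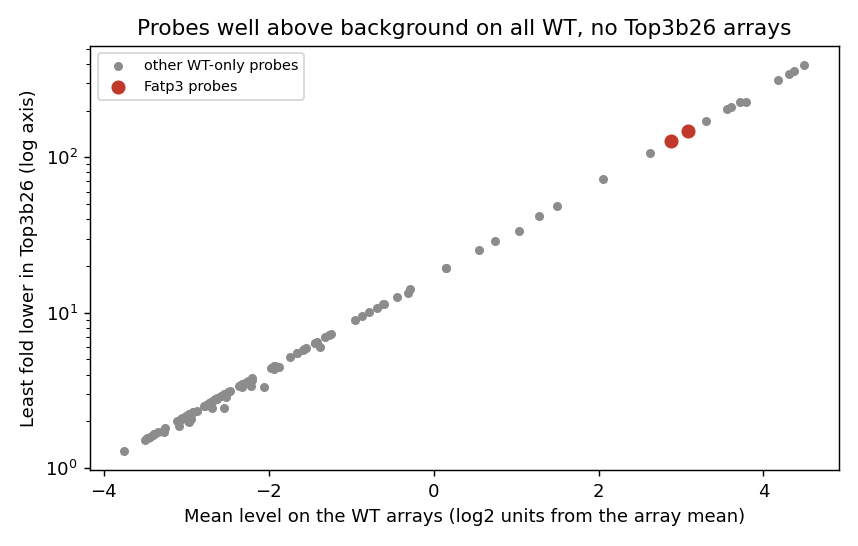
The 107 probes that passed the background flag on all WT arrays and on none of the Top3b26 arrays, with the mean WT level (log2 units from the array mean) against the least fold by which each was lower in Top3b26 (log axis). The points fall close to a line because the mutant side is set to nearly the same lowest level for each probe. The 2 Fatp3 probes, in red, are near the bright end, at 128-fold and 147-fold (19.5-fold and 25.5-fold with the normexp correction, not drawn).

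A limma fit over 23013 probes, those that passed the flag throughout 1 group or both, gives the background for this comparison. At a Benjamini-Hochberg adjusted p of 0.05 or less it called 203 probes, or 0.882%, of which 164 (0.713%) were lower and 39 (0.169%) higher in Top3b26. The count depended strongly on the settings. It was 44 (2 higher) with the slide and 13 (0 higher) with the replicate number as a block, 43 (4 higher) under normexp and 17 (2 higher) without WT 2. When arrays were scaled by their median difference, an alternative added later, 498 were called and 184 of them were higher. With looser thresholds on the same fit (a false discovery rate of 0.30 and a 1.5-fold change, which are part of the criteria in the study's methods), 1398 probes, or 6.07%, were called. The other criteria of the methods, on detection, mean intensity and further p-values, were not applied. Every Top3b26 array was below every WT array at 15.0% of the tested probes with 6 values, and above every WT array at 4.85%. The median difference over all of these probes was -0.15 (log2), which is small beside the difference at Fatp3.

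The other genes of fatty acid metabolism could be followed only where a probe had a gene name. Of 156 listed genes for fatty acid uptake, activation, synthesis, elongation, storage and oxidation, 2 other than Fatp3 had one, and neither Fatp1 nor Fatp2 did. Hsl, the hormone-sensitive lipase that breaks down stored lipid, was well above background on all 6 arrays. Its processed signal was 5251, 3092 and 7891 on Top3b26 arrays 1, 2 and 3, against 4854, 4244 and 10849 on WT arrays 1, 2 and 3.

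The groups overlapped at Hsl. Its level was 3.46 ± 0.28 in Top3b26 and 3.71 ± 0.18 in WT (SD, n = 3 arrays per group). The difference was -0.26 ± 0.24 (SE), and it did not pass the test (limma adjusted p = 0.768 over all tested probes). ATPCL, the enzyme that makes cytosolic acetyl-CoA for fatty acid synthesis, had 1 named probe, which was not well above background on any array and was not tested. Its signal was 15.4, 20.7 and 8.32 on Top3b26 arrays 1, 2 and 3, against 83.3, 19.9 and 33.4 on WT arrays 1, 2 and 3. Of the listed genes other than Fatp3, 0 of the 1 tested were called.

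Of 130 listed marker genes for photoreceptors, pigment cells, neurons, glia, fat body, oenocytes, muscle, testis, accessory gland, ovary and male dosage compensation, 2 had a named probe, both of them male dosage compensation RNAs. The labelled tissue could therefore not be checked with the markers of head cells, and whether cell types that express Fatp3 differed in amount between the groups was not tested. The RNAs roX1 and roX2, which coat the male X chromosome, were well above background on all 6 arrays with 6 probes. Top3b26 minus WT was between -0.15 and 0.93 (log2), 5 of 6 probes being above 0, and 0 were called (limma adjusted p from 0.349 to 0.939).

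To ask which other RNAs shared the pattern, the level of each tested probe over the 6 arrays was correlated with the mean level of the Fatp3 probes. Pearson's r is given only as a measure of likeness, since the arrays and their brightness are shared and a high r with Fatp3 can hardly come without a difference between the genotypes. Of the 22955 probes with 6 values, 90 probes besides those of Fatp3 reached an r of 0.99, and all 90 were lower in Top3b26. Only 4 of these had a difference of at least 9 (log2) in size. None had an r above that between the 2 Fatp3 probes. The highest were FBtr0081306 and FBtr0074745, both with r = 0.999 and neither with a gene name in the table used. Unlike Fatp3, both were well above background on all Top3b26 arrays, with differences of -4.92 and -5.34.

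Only 207 of those 22955 probes had a gene name. The 5 named genes with the most similar pattern were asRNA:CR44030 (r = 0.984), CG8635 (r = 0.978), LanA (r = 0.967), lncRNA:CR43242 (r = 0.966) and Nepl4 (r = 0.962). Likeness in pattern did not mean likeness in size. The antisense RNA asRNA:CR44030 came nearest, at a level of -4.43 ± 0.46 in Top3b26 and 1.59 ± 0.40 in WT (SD, n = 3 arrays per group). Of the Top3b26 arrays, 1 of 3 had it well above background.

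Nepl4, of the neprilysin-like peptidase family, was measured on every array, at 1.06 ± 0.42 in Top3b26 and 4.22 ± 0.43 in WT. The long non-coding RNA lncRNA:CR43242 was at -1.54 ± 0.48 in Top3b26 and 0.34 ± 0.17 in WT. LanA, a laminin subunit of the basement membrane, was at 3.14 ± 0.05 in Top3b26 and 3.95 ± 0.17 in WT. CG8635 was at 4.65 ± 0.08 in Top3b26 and 4.97 ± 0.03 in WT. The last difference was only -0.32, with the arrays of each group close together.

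**Figure D4:**
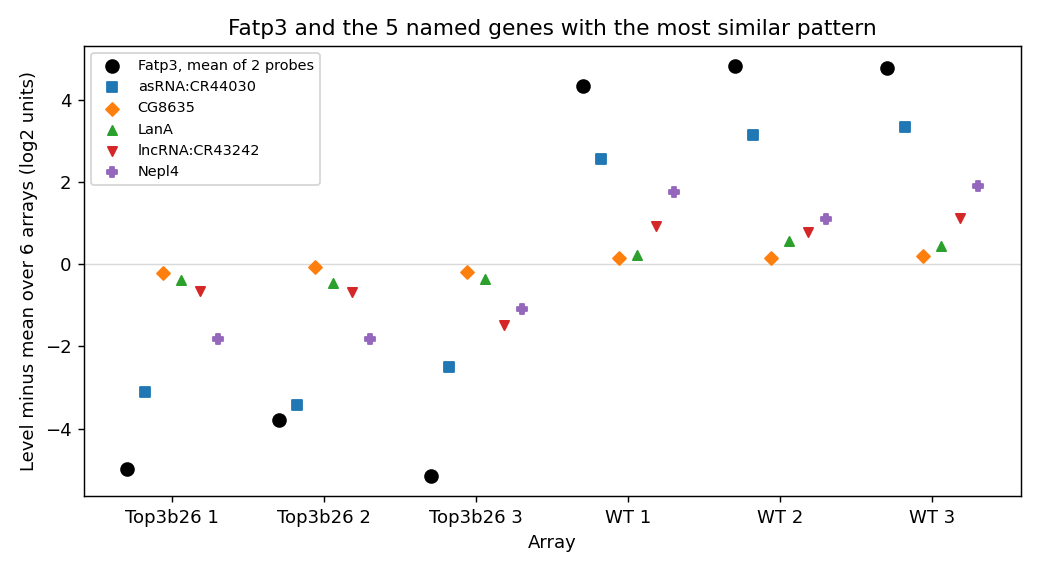
Level of Fatp3 (mean of its 2 probes) and of the 5 named genes with the highest r on each array, each as the difference from its own mean over the 6 arrays (log2 units), with the 3 Top3b26 arrays on the left and the 3 WT arrays on the right. All 6 genes are below 0 on every Top3b26 array and above 0 on every WT array, but the steps differ widely in size, Top3b26 minus WT being -0.32 for CG8635 and -9.13 and -9.41 at the Fatp3 probes.

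The authors' own normalized values gave the same picture for Fatp3. In their table of z-scores the 10-spot probe had a mean score of -1.60, -1.33 and -1.65 on Top3b26 arrays 1, 2 and 3, against 0.71, 0.81 and 0.80 on WT arrays 1, 2 and 3. The single-spot probe had -1.64, -1.35 and -1.65 on the Top3b26 arrays, against 0.73, 0.87 and 0.87 on the WT arrays. These scores come from the same scans and are not a second measurement.

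The size of the difference depended on how background was treated. With normexp and its added constant of 50 the difference was -4.45 at the 10-spot probe and -4.86 at the single-spot probe. At the single-spot probe the levels were then -3.37, -2.78 and -2.82 on Top3b26 arrays 1, 2 and 3, against 1.78, 1.65 and 2.17 on WT arrays 1, 2 and 3. The groups still did not overlap.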

How the data were processed

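RNA of 3 Top3b26 and 3 WT head samples was labelled with Cy3 and hybridized to Agilent 4x44K Drosophila V2 arrays. Per the file headers, the deposited intensity values are Cy3 signals from Feature Extraction 11.5.1.1, background-subtracted and detrended within each array, not normalized between arrays, and the well above background and outlier flags are from the same software. The authors also deposited score values, z-scores of log signal, which lay within 0.0051 of z-scores computed here over all 45019 spots of an array. Array number limits the precision.

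Outlier spots were left out and spots of a probe were averaged. Log2 signals were z-transformed over the 43602 non-control spots and rescaled by the average array SD (3.89). R 4.3.3 and limma 3.58.1 (lmFit, eBayes, no covariate, Benjamini-Hochberg adjustment over 23013 probes) compared Top3b26 with WT. The same fit was also run on simulated levels with known changes. Their noise was independent between arrays, so shared effects of array or slide were not covered. The methods named z-tests on z-scores, for which the fit stands in. Normexp used the median signals, with an added constant of 50.

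Probes were named with the RefSeq gene table (Release 6), which named 347 of 32162 probes. The array design cites an older build, so no coordinates are given, and no sequence is shown. Named besides Fatp3 were listed lipid genes with a tested or matched probe, the 5 named genes and 2 identifiers with the highest r, and at most 2 probes by their bound. The gene, the lists and the tests were chosen with earlier results of these data known. Alternatives were another scaling, background correction, filter, floor, variance model, blocks and leaving out each array. The labels do not say whether the replicate numbers pair the arrays, and the main fit did not use them.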

Additional observations from a re-analysis of the deposited data

How the results depend on the processing

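The Fatp3 differences (-9.13 and -9.41) and bounds moved by less than the SD between arrays under all alternatives run for them other than normexp. Under normexp the differences were -4.45 and -4.86 and the bounds 4.28 and 4.67 (log2; 19.5-fold and 25.5-fold) at the 10-spot and single-spot probes. Leaving out 1 array gave differences from -9.55 to -8.85 and from -9.84 to -9.17, and bounds (log2) from 6.75 to 7.39 and from 6.96 to 7.59. The count of called probes over the whole array (203) was 44 when slide entered as a block, 123 when dim probes were kept, 1398 at a false discovery rate of 0.30 and a 1.5-fold change, 43 under normexp and 355 (89 higher) when arrays were shifted to their 75th percentile. It was 2834 unadjusted and 87 after Benjamini-Hochberg with a plain 2-group test, which is not the z-test of the methods, and 498 (184 higher, against 39 of 203) with median-difference scaling, which was chosen after seeing the data. Leaving out 1 array gave 17 (without WT 2) to 498 (without Top3b26 2), with 29 without WT 1, 25 without WT 3, 33 without Top3b26 1 and 114 without Top3b26 3. The count was between 137 and 234 with the variance trend, the deposited scores, quantile normalization and the stricter filter. With the replicate number as a block it was 13, and the Fatp3 differences stayed at -9.13 and -9.41. Deviations of same-numbered arrays correlated at 0.565, 0.591 and -0.371 across probes. Arrays of different numbers were not compared, so this cannot decide whether the numbers pair the arrays. Hsl was lower in Top3b26 in all 16 alternatives, with differences from -0.40 to -0.04 (log2), and was called in 0 of them (adjusted p from 0.227 to 1.000). These alternatives reuse the same arrays, and the median difference over all tested probes was itself -0.15 in the main setting. With median-difference scaling the Hsl difference was -0.07. The dim signal of the Top3b26 arrays at Fatp3 limits the result to a bound.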
